A study of Mus musculus with 18 samples.

Results

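The liver of septic mice was compared with the intestine and the lung of mice given the same infection. The members are the 3 liver libraries of the untreated arm, Control_liver_1 to Control_liver_3, out of 18 libraries in the series, and they were chosen by the organ and treatment in their titles. They were set against 6 libraries of the same arm, Control_intestine_1 to 3 and Control_lung_1 to 3. All 9 came from male C57BL/6 mice, 9 weeks old, that underwent cecal ligation and puncture, in which the cecum is tied and pierced so that gut bacteria enter the abdomen. Tissue was taken 24 h after surgery, and these mice did not breathe the hydrogen gas that the other arm received. Poly(A) RNA was sequenced from organ tissue. The labels do not say which organs came from the same mouse, and sham-operated mice are not analysed here. A difference between organs therefore holds both the ordinary difference between them and their response to sepsis, which cannot be told apart in these libraries. The p-values rest on the spread between libraries of the same organ, pooled over the 3 organs, and treat the 9 libraries as independent.

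The liver makes most of the proteins of blood plasma. In infection, cytokines such as interleukin 6 and interleukin 1 act on hepatocytes, the main cells of the liver, through the transcription factors STAT3, NF-kB and C/EBP. Hepatocytes then secrete acute-phase proteins, which bind iron and heme, block proteases, mark bacteria and carry lipid. Kupffer cells, the resident macrophages of the liver sinusoids, take up bacteria that arrive from the gut with portal blood.

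Expression is given as FPKM, in which fragments are divided by transcript length and by library size, so levels can be compared between genes. Read counts do not come with FPKM. The steps of the lowest values gave an estimated depth of at most 13.2 M fragments per library, and the livers lay between 11 and 12 M. The liver libraries had 9827 to 9970 genes at 1 FPKM or more, against 11776 to 11952 in the intestine and 13112 to 13310 in the lung. In the livers the 100 most abundant genes of a library held 69.88 to 70.67% of its FPKM, against 50.29 to 52.59% in the intestines and 48.46 to 50.82% in the lungs. Pearson correlations of log2(FPKM + 1) among the livers were 0.956, 0.969 and 0.975, and those of a liver with another organ ran from 0.535 to 0.589. All 18 hepatocyte markers listed were tested, and their summed level was 20620 to 36100 FPKM in the livers, against 3776 to 7234 FPKM in the intestines and 72.44 to 82.62 FPKM in the lungs. Control liver 2 stands furthest from the others among the livers, with correlations of 0.956 and 0.969. Intestine 2 is the furthest of the intestines, at 0.951 and 0.966, and lung 3 is the furthest of the lungs, at 0.933 and 0.954. In a bulk sample, fewer cells of a type and less RNA per cell cannot be told apart.

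On FPKM the liver had fewer genes above both other organs than below them, an order that reversed after the scaling described below. Of 13238 tested genes, with a mean of at least 1 FPKM over the 9 libraries, 805 were higher in liver than in both other organs, which is 6.08%, and 6686 were lower than in both, which is 50.5%. A gene was called when limma gave an adjusted p under 0.05 in both contrasts, liver minus intestine and liver minus lung, with the same sign. Against intestine alone 1527 genes, 11.5%, were higher and 7603, 57.4%, lower, and against lung alone 1149, 8.68%, were higher and 9908, 74.8%, lower. In 824 genes, 6.22%, all 3 livers lay above the 6 other libraries, and in 7309, 55.2%, below them. Another 476 genes, 3.6%, lay between the other organs, higher than one and lower than the other. The median gene lay 0.65 below intestine and 1.18 below lung on the log2(FPKM + 1) scale, a shift of the whole distribution that goes with the large share held by the 100 most abundant genes. The part of that share in the shift was not tested. Median-of-ratios scaling, which sets the middle of the ratios between libraries to be equal, left medians of -0.02 for both contrasts. After it 2612 genes, 19.7%, were higher in liver than in both organs and 2352, 17.8%, were lower. All of the 805 higher genes and 2352 of the 6686 lower genes were called at both scalings, and only genes called at both are described as higher or lower below unless the text says otherwise. The counts in gene lists stand beside 6.08% higher and 17.8% lower among all tested genes. The share of called genes that were lower was thus 89.3% on FPKM and 47.4% after scaling.

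**Figure D1:**
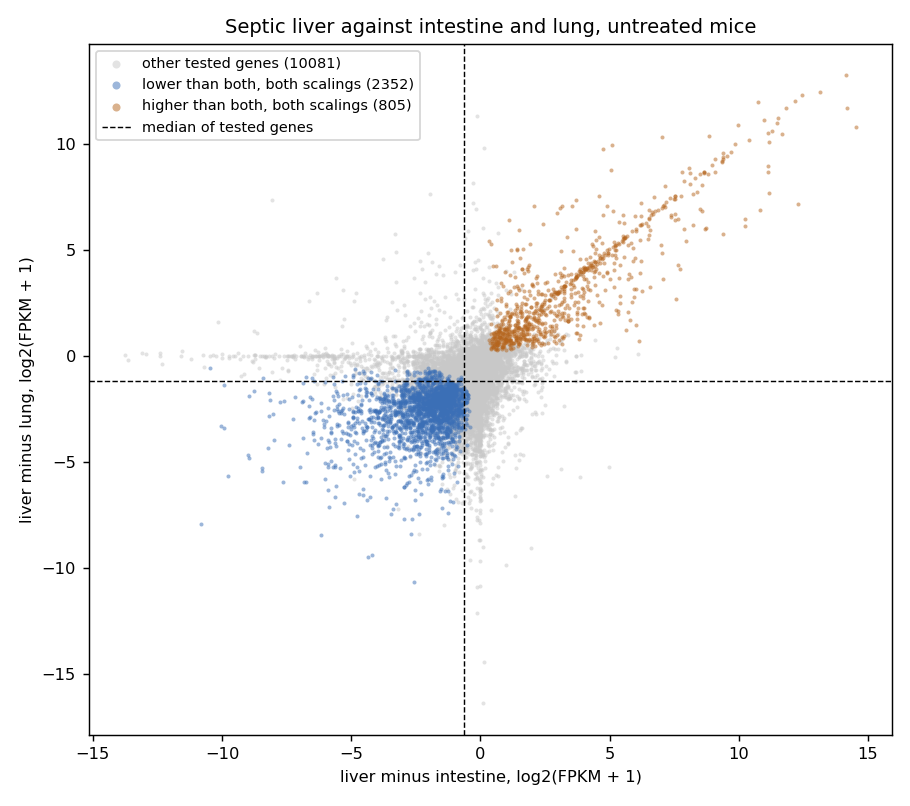
Log2(FPKM + 1) difference of liver minus intestine (x axis) and liver minus lung (y axis) for the 13238 tested genes, coloured by the call at both scalings. The dashed lines mark the medians of -0.65 and -1.18, and the 805 genes higher in liver than in both organs form the arm at the upper right.

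The genes furthest above both organs encoded secreted proteins, most of them of plasma. The 15 with the largest smaller difference were Fgb, Alb, Fga, Mup20, Mup3, Fgg, Apcs, Apoa2, Gc, Hpx, Serpina3k, Ambp, Pzp, Ahsg and Cpb2. Alb, which encodes albumin, the main protein of plasma, had 21978, 9335 and 13732 FPKM in the livers, against 0.684, 0.669 and 0.330 FPKM in the intestines and 0.998, 5.95 and 0.162 FPKM in the lungs. Liver 1 held the highest and liver 2 the lowest level, and every liver stood far above the other organs. The log2 differences of Alb were 13.15 ± 0.58 from intestine and 12.45 ± 0.58 from lung (SE, limma adjusted p = 9.1e-08 and 1.1e-07). Fgb encodes the beta chain of fibrinogen, the protein that forms blood clots, and had 34435, 21485 and 29336 FPKM in the livers, against 1.29, 0.150 and 0.317 FPKM in the intestines and 1.34, 9.48 and 0 FPKM in the lungs. It was listed at 0 in 1 lung and was lowest among the livers in library 2, as Alb was. Apcs encodes serum amyloid P, which binds amyloid and bacterial surfaces, and had 2754, 3174 and 3119 FPKM in the livers, against 0.108, 0 and 0 FPKM in the intestines and 0, 0.987 and 0 FPKM in the lungs. Cpb2, the fibrinolysis inhibitor TAFI, had 1358, 1179 and 1566 FPKM in the livers, against 0, 0 and 0 FPKM in the intestines and 0, 0.549 and 0 FPKM in the lungs.

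Acute-phase proteins dominated the septic liver. Of 30 tested members of the list, 27 were higher in liver than in both organs, against 6.08% of all tested genes, and the call of 1 lower member was lost after scaling. Together the 30 took 46.7, 52.1 and 49.7% of all FPKM in livers 1, 2 and 3, against 1.49 to 1.6% in the intestines and 2.16 to 5.13% in the lungs. The 2 most abundant genes in every liver were Saa2 and Saa1, which encode the serum amyloid A proteins carried on high density lipoprotein. Saa2 had 70960.5, 89621 and 80974 FPKM in the livers, against 25.4, 41.8 and 40.7 FPKM in the intestines and 404, 175 and 102 FPKM in the lungs. Saa1 had 62038, 80075 and 70988 FPKM in the livers, against 5254, 6970.3 and 6044 FPKM in the intestines and 1125, 388 and 339.6 FPKM in the lungs. The liver thus exceeded the other organs at both genes in every library, with log2 differences for Saa2 of 11.12 ± 0.43 from intestine and 8.69 ± 0.43 from lung (SE, limma adjusted p = 3.7e-08 and 1.6e-07). For Saa1 the differences were 3.55 ± 0.39 from intestine and 7.06 ± 0.39 from lung (SE, limma adjusted p = 3.7e-05 and 2.9e-07). Each intestine was listed with far more Saa1 than Saa2, and how reads were split between these 2 related genes was not examined. Lung 1 held the most of both genes among the lungs.

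Genes for iron and heme binding proteins were also abundant in every liver. Hpx, hemopexin, which binds free heme, had 33236, 38273 and 33897 FPKM in the livers, against 1.32, 0.215 and 0.136 FPKM in the intestines and 24.8, 15.2 and 18.4 FPKM in the lungs. Hp, haptoglobin, which binds free hemoglobin, had 27491, 26210.0 and 26559 FPKM in the livers, against 172, 229 and 197 FPKM in the intestines and 3189.8, 1626 and 1876 FPKM in the lungs. Every lung exceeded every intestine in Hp, and the livers exceeded the lungs by 3.65 ± 0.23 (SE) on the log2 scale. Hamp encodes hepcidin, the hormone that lowers iron export into blood, and had 4536, 8225 and 6804 FPKM in the livers, against 3.15, 2.57 and 1.86 FPKM in the intestines and 71.7, 83.8 and 23.9 FPKM in the lungs. Its log2 differences were 10.83 ± 0.43 from intestine and 6.88 ± 0.43 from lung (SE, limma adjusted p = 4.8e-08 and 6.6e-07). Orm1, the plasma carrier orosomucoid, had 17058, 23615 and 21351 FPKM in the livers, against 9.26, 6.46 and 8.35 FPKM in the intestines and 164, 49.5 and 119 FPKM in the lungs. Crp, C-reactive protein, a minor acute-phase protein in the mouse, had 440.0, 629 and 350.5 FPKM in the livers, against at most 0.410 FPKM in any other library.

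Some acute-phase genes were also abundant outside the liver. Saa3, the serum amyloid A of macrophages and epithelia, had 18917, 32720.4 and 24259 FPKM in the livers, against 3522, 2979 and 3031 FPKM in the intestines and 22839, 8211 and 10283 FPKM in the lungs. Lung 1 exceeded liver 1 in this gene, so the organs overlapped, while the log2 differences were 2.96 ± 0.35 from intestine and 0.99 ± 0.35 from lung (SE, limma adjusted p = 5.8e-05 and 0.024). The call against lung was lost without liver 2, liver 3, lung 2 or lung 3, and the difference from lung was -0.77 after quantile normalization. Lcn2, which withholds iron from bacteria, had 19234, 14973 and 18229.9 FPKM in the livers, against 1737, 664 and 1196 FPKM in the intestines and 12732, 5218 and 4257 FPKM in the lungs. Its lowest liver stood above its highest lung. The log2 differences of Lcn2 were 3.96 ± 0.43 from intestine and 1.40 ± 0.43 from lung (SE, limma adjusted p = 3.9e-05 and 0.013), and the call against lung was lost without lung 2 or lung 3 and the difference became -0.31 after quantile normalization. Lbp, which carries lipopolysaccharide to its receptor, had 135, 173 and 123 FPKM in the livers, against 11.4, 8.36 and 9.26 FPKM in the intestines and 80.1, 84.997 and 41.04 FPKM in the lungs, a log2 difference of 1.11 ± 0.27 (SE, limma adjusted p = 0.0041) from lung. Serpina3f and Orm3 were not called on FPKM. Serpina3g had 9.75, 11.3 and 9.96 FPKM in the livers, against 18.4, 35.6 and 15.4 FPKM in the intestines and 29.2, 55.5 and 31.01 FPKM in the lungs, and it was the 1 member called lower on FPKM, with the call against intestine lost without liver 1, liver 3 or intestine 2.

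**Figure D2:**
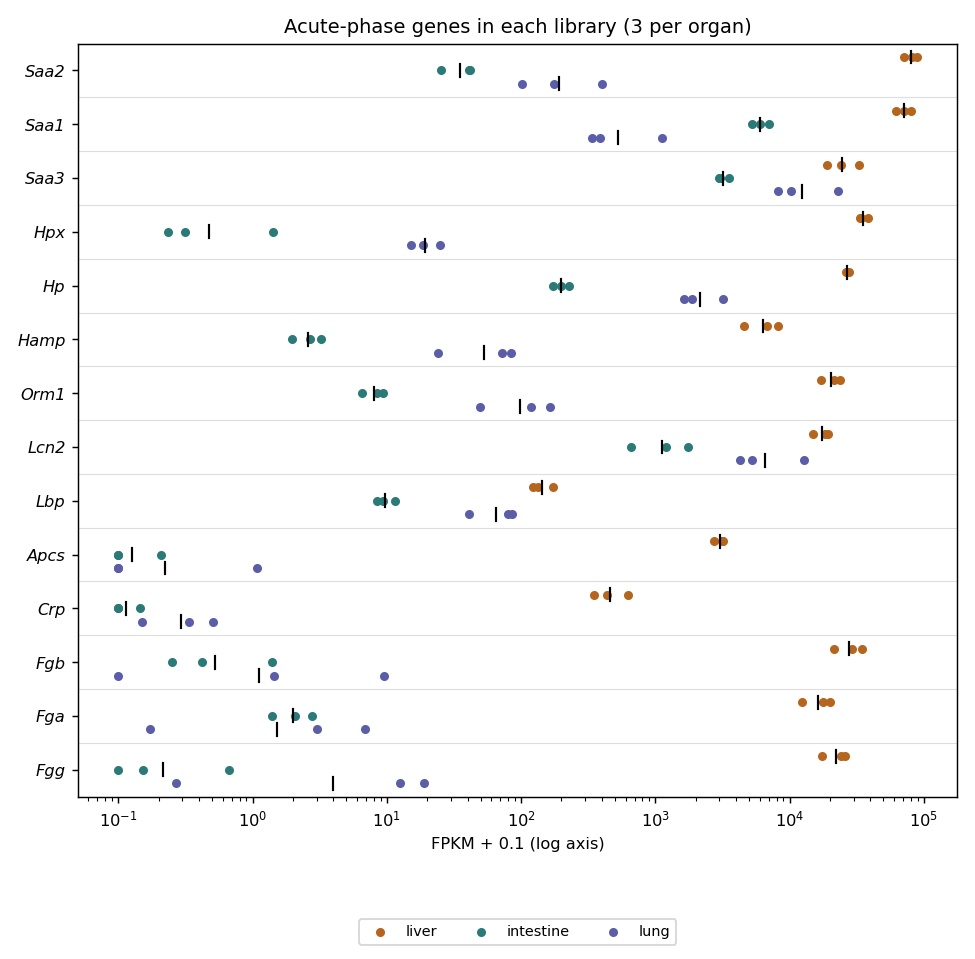
FPKM + 0.1 (log axis) of 14 genes of the acute-phase list in each of the 9 libraries, with liver above intestine above lung in each row and a short bar at the geometric mean of FPKM + 0.1. Every liver lies above 100 FPKM in each gene, and the organs come closest in Saa3, Lcn2 and Lbp.

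The start regions of these genes were read from the RefSeq promoter table to show what letters stand before genes that dominate the septic liver. The windows run from 190 bases before the RefSeq start to the base before the most upstream annotated start, 5′ to 3′ on the strand of the gene, in build GRCm38.p6. Capitals mark matches on either strand to GTTAAT, a part of the HNF1 site, TTGCNNAA, a C/EBP site, TTCNNNGAA, a STAT site, and to the NF-kB site, searched as 1 fixed pattern of 10 letters. They are shown for Alb, the hepatocyte marker, for Fgb, Saa2 and Hamp, 3 acute-phase genes, and for Cxcl1, the chemokine described below.
Alb, chr5:90460680-90460869, + strand: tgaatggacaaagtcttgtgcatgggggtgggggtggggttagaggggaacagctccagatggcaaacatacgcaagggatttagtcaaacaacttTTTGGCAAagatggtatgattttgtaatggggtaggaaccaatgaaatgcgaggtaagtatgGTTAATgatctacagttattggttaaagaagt
Fgb, chr3:83049864-83050053, - strand: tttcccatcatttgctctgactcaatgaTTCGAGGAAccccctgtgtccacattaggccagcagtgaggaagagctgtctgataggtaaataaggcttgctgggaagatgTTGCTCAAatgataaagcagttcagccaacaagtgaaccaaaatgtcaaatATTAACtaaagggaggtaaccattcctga
Saa2, chr7:46751643-46751789, + strand: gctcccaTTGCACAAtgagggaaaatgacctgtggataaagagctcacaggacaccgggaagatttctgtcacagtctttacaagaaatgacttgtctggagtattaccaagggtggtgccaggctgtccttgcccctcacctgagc
Hamp, chr7:30944033-30944219, - strand: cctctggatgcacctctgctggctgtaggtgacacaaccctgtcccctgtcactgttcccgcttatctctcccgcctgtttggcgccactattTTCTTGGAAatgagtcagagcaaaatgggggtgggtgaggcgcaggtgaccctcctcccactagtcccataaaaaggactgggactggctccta
Cxcl1, chr5:90891055-90891240, + strand: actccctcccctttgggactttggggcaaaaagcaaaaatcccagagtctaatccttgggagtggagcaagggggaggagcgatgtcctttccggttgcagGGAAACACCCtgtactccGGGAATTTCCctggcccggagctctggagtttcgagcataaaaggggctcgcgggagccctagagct

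Alb held a C/EBP match that begins 94 bases before the start and an HNF1 match at 32, and Fgb held a STAT match at 162, a C/EBP match at 80 and an HNF1 match at 29. Saa2 held a C/EBP match at 183 in its shorter window, Hamp a STAT match at 97, and Cxcl1 NF-kB matches at 89 and 71. Among all 27025 genes of the table, 5.54% held GTTAAT in the 190 bases, 8.08% TTGCNNAA, 6.04% TTCNNNGAA and 1.32% the NF-kB pattern. The shares were 3.74, 7.23, 5.68 and 1.55% among the 10010 tested genes that matched the table. Among the 608 genes higher in liver that matched they were 11, 14.3, 6.91 and 2.14%. Of 23 acute-phase genes that matched, 2 held GTTAAT, 11 held TTGCNNAA, 6 held TTCNNNGAA and 3 held the NF-kB pattern. A match is a stretch of letters and not a shown binding site, and genes without a match may bind these factors elsewhere.

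Most clotting factors and their inhibitors were higher in the liver, and tissue factor was lower. Of 34 tested members of the coagulation and fibrinolysis list, 23 were higher and 4 lower at both scalings. F2, prothrombin, had 594, 549.9 and 436 FPKM in the livers, against 0.229, 0.337 and 0.332 FPKM in the intestines and 0.239, 0.344 and 0.285 FPKM in the lungs. Plg, the precursor of the clot-dissolving enzyme plasmin, had 822, 968 and 799.7 FPKM in the livers, against 0, 0.0536 and 0.0340 FPKM in the intestines and 0, 0.301 and 0 FPKM in the lungs. Serpinc1, antithrombin, had 439.8, 502 and 383 FPKM in the livers, against at most 0.140 FPKM elsewhere. No library of another organ reached 1 FPKM for these 3 genes. On the side of lower genes, F3, tissue factor, which starts clotting, had 1.56, 0.411 and 0.438 FPKM in the livers, against 23.3, 14.3 and 22.8 FPKM in the intestines and 103, 73.8 and 64.04 FPKM in the lungs, and its log2 differences were -3.58 ± 0.29 from intestine and -5.52 ± 0.29 from lung (SE, limma adjusted p = 5.6e-06 and 2.3e-07). Plat, tissue plasminogen activator, had 1.18, 0.0650 and 0.449 FPKM in the livers, against 70.05, 12.5 and 30.8 FPKM in the intestines and 385, 248 and 44.6 FPKM in the lungs. Both of these genes were below every other library in all 3 livers. In the complement list 19 of 33 members were higher and 3 lower. C3, the central complement protein, had 5007, 5445 and 4449 FPKM in the livers, against 41.3, 82.5 and 39.5 FPKM in the intestines and 511, 543 and 504 FPKM in the lungs. C9, of the membrane attack complex, had 199.8, 97.6 and 82.8 FPKM in the livers and at most 0.0536 FPKM elsewhere. C5ar1, the receptor for C5a on white blood cells, was lower, at 0.984, 0.836 and 0.499 FPKM in the livers, against 4.01, 3.35 and 2.55 FPKM in the intestines and 37.4, 19.1 and 16.9 FPKM in the lungs, as were C7 and Cfd.

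Most secreted carrier genes were higher in liver, and lipoprotein genes were divided between higher and not called. Of 29 secreted carrier proteins and hepatokines, 25 were higher in liver and 0 lower. Of 27 lipoprotein genes, 14 were higher, 1, the endothelial lipase Lipg, was lower, and the others were between the organs or not called. Apoa2 had 5725, 4475 and 4516 FPKM in the livers, against 0.839, 1.74 and 1.69 FPKM in the intestines and 1.12, 1.16 and 1.24 FPKM in the lungs. Apoc4, Apof, Apoh and Apon were higher in liver and below 1 FPKM in every library of the other organs. Apoa1, the main protein of high density lipoprotein, and Apob, that of low density lipoprotein and chylomicrons, were among those not called and were named after their values were seen. Apoa1 had 4403, 3710.1 and 4444 FPKM in the livers, against 6078, 3061 and 5041 FPKM in the intestines and 0.335, 1.78 and 0.190 FPKM in the lungs. Apob had 467, 377 and 369.7 FPKM in the livers, against 734, 330.5 and 493 FPKM in the intestines and 0.471, 0.513 and 0.303 FPKM in the lungs. Liver and intestine overlapped in both genes and the difference was not called, while the lung was lower in every library. Without intestine 2, Apob was called lower in liver than in intestine. Igfbp1, which binds insulin-like growth factors, had 729.8, 282 and 694 FPKM in the livers and at most 0.127 FPKM elsewhere. Gc, which carries vitamin D, had 3592, 3326 and 2959.9 FPKM in the livers, against 0.417, 0 and 0.0540 FPKM in the intestines and 0.544, 1.52 and 0.0930 FPKM in the lungs.

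Genes of amino acid breakdown were nearly all higher in liver. Of 37 tested, 31 were higher in liver than in both organs and 1 was lower. Mat1a, which makes the methyl donor S-adenosylmethionine in hepatocytes, had 1770.0, 883 and 1109 FPKM in the livers, against 0, 0 and 0 FPKM in the intestines and 27.2, 19.3 and 3.49 FPKM in the lungs. It was listed at 0 in every intestine, and its log2 difference from lung was 6.46 ± 0.59 (SE, limma adjusted p = 6.8e-06). Its counterpart of other tissues, Mat2a, was the 1 lower gene, at 22.9, 18.2 and 19.01 FPKM in the livers, against 62.6, 70.9 and 63.5 FPKM in the intestines and 83.02, 106 and 99.9 FPKM in the lungs. Tdo2, which starts tryptophan breakdown, had 434, 605 and 350.2 FPKM in the livers, against 0.0587, 0.144 and 0 FPKM in the intestines and 8.20, 5.42 and 4.58 FPKM in the lungs. Bhmt, which remakes methionine from homocysteine, had 57.6, 711 and 77.1 FPKM in the livers, against 0.314, 3.74 and 0.232 FPKM in the intestines and 0, 0 and 0 FPKM in the lungs. Liver 2 stood far above the other livers in Bhmt, and all 3 exceeded the other organs.

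In the urea cycle and ammonia list 11 of 19 members were higher and 3 lower. Arg1, liver arginase, which releases urea, had 1759, 1309.6 and 1456 FPKM in the livers, against 27.5, 10.4 and 11.9 FPKM in the intestines and 67.6, 28.02 and 10.9 FPKM in the lungs, with log2 differences of 6.54 ± 0.58 from intestine and 5.71 ± 0.58 from lung (SE, limma adjusted p = 9.4e-06 and 1.3e-05). Arg2, the arginase of other tissues, had 1.48, 0.378 and 2.29 FPKM in the livers, against 10.2, 14.5 and 15.4 FPKM in the intestines and 35.2, 28.1 and 16.9 FPKM in the lungs, the opposite order. Gls2, the liver form of glutaminase, was higher, at 14.9, 36.1 and 14.3 FPKM in the livers, against 0.193, 0.471 and 0.154 FPKM in the intestines and 0.161, 0.192 and 0.165 FPKM in the lungs. Cps1, which starts the cycle, was shared with the gut, at 75.2, 105 and 35.5 FPKM in the livers, against 43.3, 92.7 and 58.2 FPKM in the intestines and 0, 0.0260 and 0 FPKM in the lungs. Liver and intestine overlapped in Cps1 and did not pass the test.

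Genes of glucose output were called in both directions, and genes of glycolysis and hypoxia were more often lower than higher. Of 25 genes of glucose output and glycogen, 7 were higher and 4 lower at both scalings, and 10 were lower on FPKM. The lower count at both scalings was near the 17.8% of all tested genes. Fbp1, fructose bisphosphatase of gluconeogenesis, had 1621, 821 and 1841 FPKM in the livers, against 56.8, 25.7 and 83.2 FPKM in the intestines and 0.686, 1.26 and 0 FPKM in the lungs. Pck1, which starts gluconeogenesis from oxaloacetate, had 232, 380.3 and 119 FPKM in the livers, against 11.2, 4.93 and 13.7 FPKM in the intestines and 0.362, 0.433 and 25.6 FPKM in the lungs, and lung 3 stood apart from the other lungs in it. Gys2, liver glycogen synthase, was higher, and Gys1 and Pygb, the glycogen synthase and phosphorylase of other tissues, were lower. Of 28 genes of glycolysis and hypoxia, 1 was higher and 10 lower. Hk2, the hexokinase that traps glucose in growing cells, had 0.562, 0.430 and 0.733 FPKM in the livers, against 118, 94.5 and 84.1 FPKM in the intestines and 16.3, 13.1 and 8.09 FPKM in the lungs. Pkm, pyruvate kinase of tissues other than liver, had 38.6, 17.3 and 23.6 FPKM in the livers, against 408, 183 and 275 FPKM in the intestines and 411, 259 and 268 FPKM in the lungs. Neither gene overlapped between liver and the other organs. The higher one was Ldha, which interconverts pyruvate and lactate, at 1116, 733 and 1109.5 FPKM in the livers, against 767, 559 and 583 FPKM in the intestines and 444, 355 and 294 FPKM in the lungs, with log2 differences of 0.62 ± 0.22 from intestine and 1.43 ± 0.22 from lung (SE, limma adjusted p = 0.029 and 0.0002). Liver 2 overlapped with the intestines in Ldha, and the call against intestine was lost without liver 1, liver 3, intestine 2 or intestine 3. The count of higher genes in this list was 2 without intestine 1.

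Bile acid genes were mostly higher in liver or lay between the gut and the lung. Of 31 tested, 18 were higher in liver than in both organs, 1 lower and 7 lay between on FPKM. Slc10a1, which takes bile acids up from portal blood, had 22.3, 48.1 and 16.1 FPKM in the livers, against 0, 0 and 0 FPKM in the intestines and 0.0670, 0.268 and 0 FPKM in the lungs. Slco1b2, another uptake carrier, had 30.2, 108 and 18.8 FPKM in the livers, against 0.0271, 0.0221 and 0 FPKM in the intestines and 0.0280, 0 and 0 FPKM in the lungs. Liver 2 was the highest liver in both genes, and no library of another organ reached 1 FPKM. Slc27a5, which activates bile acids for conjugation, had 186, 119.6 and 102 FPKM in the livers and at most 0.0410 FPKM elsewhere. Nr1h4, the bile acid receptor FXR, had 41.1, 46.2 and 26.95 FPKM in the livers, against 183, 119.9 and 170.2 FPKM in the intestines and 0.462, 0.211 and 0.252 FPKM in the lungs, so the intestine exceeded the liver and the liver exceeded the lung. Slc10a2, the ileal bile acid carrier, had 4.20, 14.3 and 4.91 FPKM in the livers, against 268, 190.4 and 208 FPKM in the intestines and 0, 0 and 0 FPKM in the lungs, in the same order. Cyp7a1, the rate-limiting enzyme of bile acid synthesis, had 0.0190, 0 and 0 FPKM in the livers and was listed at 0 in the other 6 libraries, too low to be tested.

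Drug-metabolizing enzymes included many that were higher in liver than in both organs and few that were lower than in both. In the list of cytochrome P450 and flavin monooxygenases 16 of 35 were higher and 3 lower, and in the list of conjugation enzymes 15 of 38 were higher and 1 lower. Another 8 and 5 members lay between the other organs on FPKM, against 3.6% of all tested genes. Without scaling, the P450 and flavin monooxygenase list summed to 1828 to 2807 FPKM in the livers, 474.8 to 690.9 FPKM in the intestines and 1963 to 3418 FPKM in the lungs. Such sums depend on scaling and on the most abundant members. The median log2 difference of its tested members from lung was 2.64 on FPKM and 3.31 after median-of-ratios scaling. The 3 lower P450 and flavin monooxygenase genes became 1 without intestine 1 or intestine 3. Cyp2e1, which oxidizes ethanol, had 856, 642 and 616 FPKM in the livers, against 3.01, 2.01 and 1.08 FPKM in the intestines and 6.28, 12.2 and 13.3 FPKM in the lungs. Cyp3a11, which oxidizes many drugs, had 196, 23.2 and 113 FPKM in the livers, against 0.181, 1.07 and 1.03 FPKM in the intestines and 0.0470, 0.0750 and 0 FPKM in the lungs. Cyp2c70, which makes the muricholic acids of mice, had 410.4, 66.1 and 183 FPKM in the livers, against 0, 0.0455 and 0.115 FPKM in the intestines and 0, 0 and 0 FPKM in the lungs. In Cyp3a11 and Cyp2c70 liver 2 was the lowest and liver 1 the highest. Nnmt, which methylates nicotinamide, had 695, 344 and 495 FPKM in the livers, against 2.35, 4.57 and 1.86 FPKM in the intestines and 12.98, 14.1 and 22.2 FPKM in the lungs. Cyp2s1, an epithelial P450, was lower in liver, at 0.0930, 0.0630 and 0 FPKM in the livers, against 9.39, 7.89 and 11.1 FPKM in the intestines and 45.7, 39.1 and 61.5 FPKM in the lungs.

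Of 33 fatty acid oxidation and ketone body genes, 9 were higher and 1 lower. Oxct1, which other organs use to burn ketone bodies, had 0.706, 0.627 and 0.742 FPKM in the livers, against 28.9, 32.5 and 29.4 FPKM in the intestines and 25.7, 30.2 and 33.5 FPKM in the lungs, with log2 differences of -4.21 ± 0.13 from intestine and -4.18 ± 0.13 from lung (SE, limma adjusted p = 9.3e-09 and 1.3e-08). Of 33 fatty acid and cholesterol synthesis genes, 6 were higher and 1 lower, and that gene was Scd2, at 1.31, 1.03 and 1.53 FPKM in the livers, against 26.6, 12.9 and 28.4 FPKM in the intestines and 53.5, 76.7 and 79.3 FPKM in the lungs.

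In the iron and heme list 15 of 35 were higher and 1 lower. Besides Hpx, Hp and Hamp, the list held Trf, transferrin, which carries iron in plasma, at 7859.8, 13357 and 11325 FPKM in the livers, against 28.3, 26.1 and 20.2 FPKM in the intestines and 170.2, 149.9 and 175 FPKM in the lungs. Tfr2 and Tmprss6, which regulate hepcidin, were both higher. Tfr2 had 79.2, 74.8 and 68.8 FPKM in the livers and at most 0.0640 FPKM elsewhere. Slc40a1, ferroportin, the iron exporter that hepcidin removes, had 8.11, 10.3 and 11.4 FPKM in the livers, against 22.8, 44.4 and 30.1 FPKM in the intestines and 3.96, 3.77 and 4.77 FPKM in the lungs, and so lay between the other organs. Heph, the gut partner of ferroportin, was lower, at 0.134, 0.102 and 0.101 FPKM in the livers, against 78.5, 58.1 and 76.2 FPKM in the intestines and 0.914, 1.80 and 2.34 FPKM in the lungs. Its difference from lung became 0.064 after quantile normalization. Mt1, the metal-binding metallothionein, was higher in liver, at 5982, 5417 and 6774 FPKM in the livers, against 549, 266 and 629.8 FPKM in the intestines and 3727, 3017 and 903 FPKM in the lungs, with a log2 difference of 1.48 ± 0.51 (SE, limma adjusted p = 0.022) from lung that was no longer called without liver 3.

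Transcription factors known from liver were not all highest there. Of 30 tested, 11 were higher than in both organs, 3 lower and 6 between on FPKM. Onecut1, or HNF6, had 3.51, 4.57 and 1.81 FPKM in the livers and was listed at 0 in the other 6 libraries. Prox1, of hepatocyte and lymphatic fate, had 12.3, 15.5 and 11.7 FPKM in the livers, against 0.873, 0.590 and 0.749 FPKM in the intestines and 0.244, 0.266 and 0.189 FPKM in the lungs. Nr0b2, or SHP, a repressor that FXR induces, had 5.82, 24.2 and 4.83 FPKM in the livers, against 0.0919, 0 and 0.0951 FPKM in the intestines and 0, 0.229 and 0.163 FPKM in the lungs, with liver 2 the highest. Atf5, a stress response factor abundant in liver, had 196, 216 and 179 FPKM in the livers, against 27.5, 33.9 and 19.8 FPKM in the intestines and 56.6, 44.2 and 88.8 FPKM in the lungs. Hnf4a, a main regulator of hepatocyte and gut epithelial genes, had 165, 139.9 and 145 FPKM in the livers, against 229, 162 and 160.1 FPKM in the intestines and 0, 0.0670 and 0.0180 FPKM in the lungs. Creb3l3, which drives hepcidin and lipid genes, had 144, 132 and 106 FPKM in the livers, against 237, 73.6 and 171 FPKM in the intestines and 0.0420, 0.0670 and 0.0360 FPKM in the lungs. In both, liver and intestine overlapped and the lung was near 0. Neither was called on FPKM with all 9 libraries, Creb3l3 was called lower than intestine without intestine 2, and Hnf4a was called higher than both organs after median-of-ratios scaling. Of the C/EBP factors, Cebpb had 42.5, 41.5 and 54.9 FPKM in the livers, against 18.5, 15.7 and 20.5 FPKM in the intestines and 166, 134 and 93.8 FPKM in the lungs. Cebpd had 15.2, 13.5 and 16.04 FPKM in the livers, against 34.2, 40.6 and 36.8 FPKM in the intestines and 269.6, 253 and 150.4 FPKM in the lungs. Every lung was above every other library in both genes. Cebpd was lower than both organs and Cebpb lay between them on FPKM only.

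In lists with 1 lower gene, that count was 2 for fatty acid oxidation without liver 2, for iron and heme without liver 2, lung 1 or lung 3, for conjugation enzymes without liver 1 and for glucocorticoid targets, described below, without liver 2 or intestine 2.

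**Figure D3:**
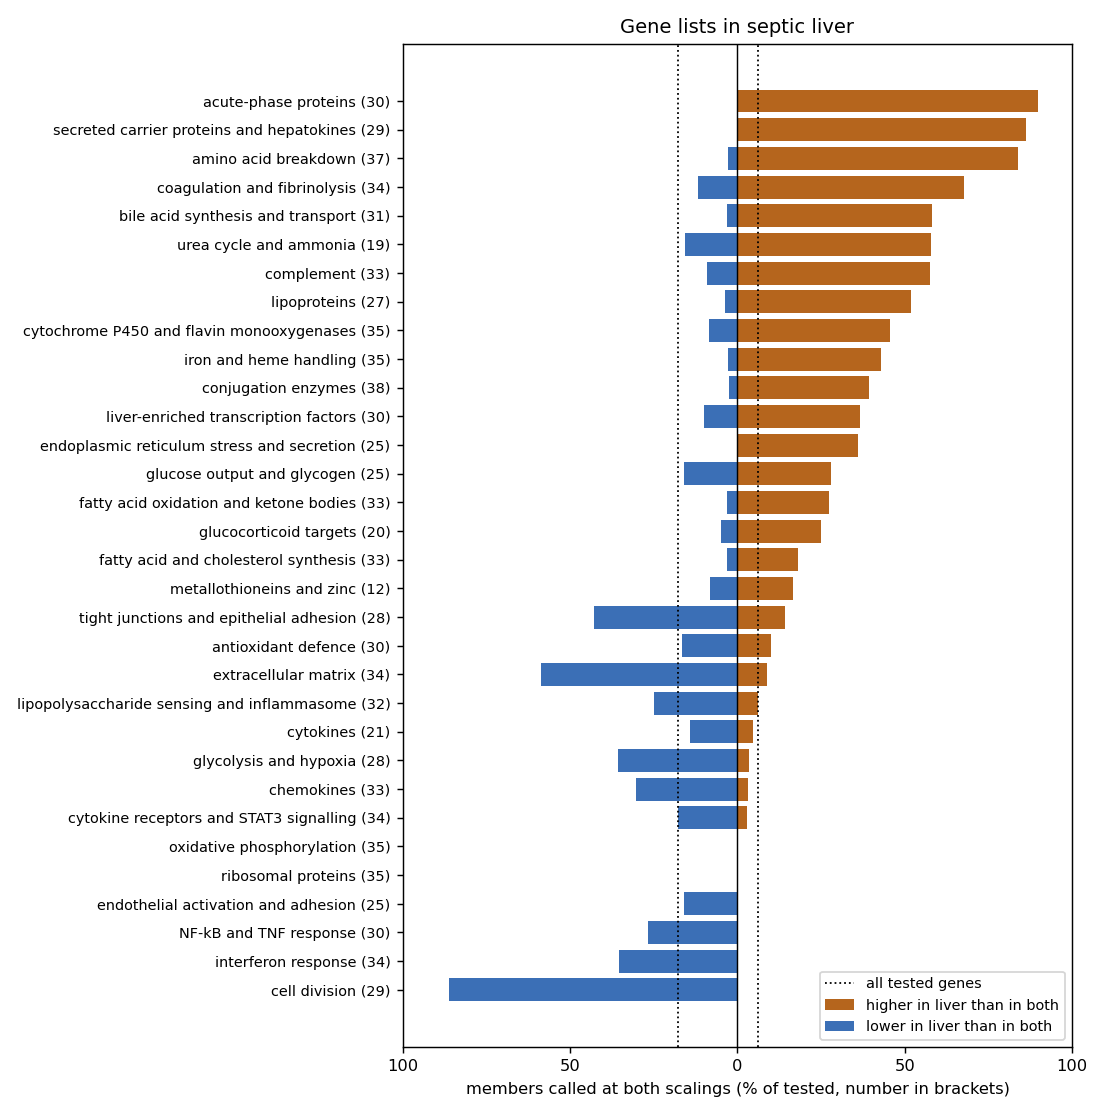
Share of tested members (%) higher in liver than in both other organs (right) and lower than in both (left), called at both scalings, for 32 process lists (tested members in brackets). The dotted lines mark 6.08% and 17.8%, the shares among all 13238 tested genes.

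Of 21 cytokines tested, 1 was higher and 3 lower, shares near the 6.08% and 17.8% of all tested genes. On FPKM alone 8 were lower, a smaller share than the 50.5% of all tested genes. The count of lower cytokines was 5 without lung 1 or lung 3. The higher one was Il1rn, the interleukin 1 receptor antagonist, at 286, 125 and 300.0 FPKM in the livers, against 45.3, 5.32 and 14.4 FPKM in the intestines and 140.0, 58.4 and 19.2 FPKM in the lungs. Its differences were 3.75 ± 0.83 from intestine and 2.003 ± 0.83 from lung (SE, limma adjusted p = 0.003 and 0.047), and lung 1 exceeded liver 2, so the organs overlapped. The call against lung was lost without liver 1, liver 3, intestine 3, lung 2 or lung 3. Il6, which drives the acute-phase response, had 6.28, 0.869 and 4.91 FPKM in the livers, against 49.96, 1.16 and 45.98 FPKM in the intestines and 104, 27.6 and 4.48 FPKM in the lungs. The libraries of all 3 organs overlapped in Il6, and neither contrast was called. Il1b had 26.9, 5.86 and 20.995 FPKM in the livers, against 93.9, 17.7 and 80.8 FPKM in the intestines and 303, 215 and 39.8 FPKM in the lungs, and was called lower than lung on FPKM only. Tnf had 1.81, 0.896 and 0.787 FPKM in the livers, against 6.31, 7.18 and 3.04 FPKM in the intestines and 20.8, 10.02 and 4.47 FPKM in the lungs, and was called lower than both organs on FPKM only, with the call against intestine lost without intestine 1 or intestine 2. In Il6 and Il1b liver 2 was lowest among livers, intestine 2 among intestines and lung 3 among lungs.

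Of 33 chemokines, 1 was higher and 10 lower, against 6.08% and 17.8% of all tested genes. The higher one was Cxcl1, which attracts neutrophils, at 362, 397 and 562 FPKM in the livers, against 111, 8.93 and 83.7 FPKM in the intestines and 176, 114 and 18.1 FPKM in the lungs. All 3 livers exceeded the 6 other libraries, with log2 differences of 3.25 ± 1.001 from intestine and 2.57 ± 1.001 from lung (SE, limma adjusted p = 0.017 and 0.037). The call against lung was lost without any 1 of the 3 livers, lung 2 or lung 3, and that against intestine without liver 3. Its relative Cxcl2 had 30.4, 4.01 and 22.1 FPKM in the livers, against 152, 4.05 and 46.7 FPKM in the intestines and 208, 79.4 and 10.01 FPKM in the lungs, which overlapped and was not called. Among the livers Cxcl2 and Il6 were lowest in liver 2, and Cxcl1 was not. Among lower chemokines, Ccl12 had 2.05, 1.65 and 1.26 FPKM in the livers, against 16.6, 24.8 and 10.03 FPKM in the intestines and 85.1, 32.05 and 28.1 FPKM in the lungs. Cx3cl1 had 0.203, 0.181 and 0.110 FPKM in the livers, against 38.6, 38.5 and 33.02 FPKM in the intestines and 16.1, 7.49 and 8.95 FPKM in the lungs. Ccl2, which attracts monocytes, had 65.8, 13.6 and 42.6 FPKM in the livers, against 168, 49.1 and 115 FPKM in the intestines and 195, 75.2 and 37.6 FPKM in the lungs and was not called.

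Of 34 cytokine receptors and STAT3 pathway genes, 1 was higher and 6 lower, shares near the 6.08% and 17.8% of all tested genes. The count of higher ones was 2 without liver 3. The higher one was Il1r1, the signalling receptor of interleukin 1, at 109, 94.7 and 118 FPKM in the livers, against 9.40, 4.91 and 9.87 FPKM in the intestines and 31.5, 20.9 and 11.1 FPKM in the lungs. All livers lay above all other libraries, with log2 differences of 3.62 ± 0.36 from intestine and 2.40 ± 0.36 from lung (SE, limma adjusted p = 1.9e-05 and 0.00017). Il6ra, which binds interleukin 6, had 8.01, 7.85 and 6.23 FPKM in the livers, against 2.80, 2.02 and 2.68 FPKM in the intestines and 21.1, 16.004 and 15.2 FPKM in the lungs. Il6ra lay between the other organs on FPKM and was not called after scaling. Socs3, a feedback inhibitor that STAT3 induces, had 74.6, 53.6 and 72.7 FPKM in the livers, against 156, 99.3 and 117 FPKM in the intestines and 301, 281 and 69.4 FPKM in the lungs. Socs3 was lower than lung on FPKM only, with liver and lung overlapping, and was not called against intestine. Its call against lung was lost without liver 2, lung 1 or lung 2. Both chains of the interferon gamma receptor were lower in liver, with Ifngr1 at 8.52, 7.08 and 10.6 FPKM in the livers, against 147, 109.6 and 118 FPKM in the intestines and 122, 134 and 133 FPKM in the lungs. Ifngr2 had 11.7, 11.9 and 12.7 FPKM in the livers, against 79.8, 68.4 and 88.2 FPKM in the intestines and 54.2, 39.4 and 47.9 FPKM in the lungs, and neither chain overlapped between liver and the other organs.

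In the list of lipopolysaccharide sensing and inflammasome genes, 2 of 32 were higher in liver and 8 lower, against 6.08% and 17.8% of all tested genes, so the higher share was near that of all genes. The higher ones were Lbp, described with the acute-phase genes, and Cd14, the surface receptor that takes lipopolysaccharide from it, at 807, 229 and 705 FPKM in the livers, against 40.3, 17.98 and 26.1 FPKM in the intestines and 348, 146 and 56.3 FPKM in the lungs. Lung 1 exceeded liver 2 in Cd14, and the log2 differences were 4.20 ± 0.68 from intestine and 1.83 ± 0.68 from lung (SE, limma adjusted p = 0.00045 and 0.03). The call against lung was lost without liver 1, liver 3, lung 2 or lung 3. Tlr4, the receptor that signals, was lower, at 0.635, 0.626 and 0.534 FPKM in the livers, against 3.26, 3.69 and 3.57 FPKM in the intestines and 13.5, 12.7 and 8.86 FPKM in the lungs, with log2 differences of -1.50 ± 0.16 from intestine and -2.97 ± 0.16 from lung (SE, limma adjusted p = 3.1e-05 and 2.5e-07). Several genes of the inflammasome, which activates interleukin 1 and pyroptosis, were lower. Pycard, its adaptor ASC, had 1.35, 0.908 and 0.800 FPKM in the livers, against 78.1, 110.4 and 108 FPKM in the intestines and 39.5, 27.7 and 23.9 FPKM in the lungs. Casp1, its protease, had 0.914, 2.04 and 0.996 FPKM in the livers, against 73.96, 114 and 102 FPKM in the intestines and 14.3, 13.2 and 12.9 FPKM in the lungs. Casp4, the caspase-11 of mice, which binds lipopolysaccharide inside the cell, had 5.74, 3.33 and 4.67 FPKM in the livers, against 60.8, 58.8 and 62.2 FPKM in the intestines and 56.3, 53.1 and 31.4 FPKM in the lungs. None of these 3 genes overlapped between liver and the other organs.

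Interferon and NF-kB response lists had no member called higher in liver on FPKM, against 6.08% of all tested genes. After median-of-ratios scaling 1 of 34 interferon and 4 of 30 NF-kB and TNF response genes were higher, against 19.7% of all tested genes. Of 34 interferon response genes, 12 were lower at both scalings, against 17.8% of all tested genes, and 21 on FPKM alone, against 50.5%. Irf1, which interferon gamma induces, had 10.4, 14.8 and 12.3 FPKM in the livers, against 142, 164 and 59.9 FPKM in the intestines and 127, 129 and 93.5 FPKM in the lungs. Oasl2, of antiviral defence, had 3.95, 2.49 and 2.60 FPKM in the livers, against 37.4, 66.7 and 69.4 FPKM in the intestines and 81.1, 47.1 and 44.9 FPKM in the lungs. In this list 27 of 34 members were highest among the livers in liver 1, against 34.5% of all tested genes. Of 30 NF-kB and TNF response genes, 8 were lower at both scalings, against 17.8% of all tested genes, and 15 on FPKM, near the 50.5% of all tested genes. The count at both scalings was 5 without liver 1 or lung 2 and 4 without liver 2, liver 3 or intestine 1, and 1 gene was higher without lung 1. Nfkbia, the inhibitor that NF-kB induces, had 48.1, 43.8 and 55.6 FPKM in the livers, against 228, 109 and 186 FPKM in the intestines and 605, 428 and 304 FPKM in the lungs. Gadd45b, a stress response gene, had 2.82, 3.03 and 5.23 FPKM in the livers, against 30.8, 16.3 and 22.2 FPKM in the intestines and 93.7, 86.2 and 83.001 FPKM in the lungs. Nos2, inducible nitric oxide synthase, had 0.986, 0.0600 and 0.450 FPKM in the livers, against 108, 132 and 53.1 FPKM in the intestines and 2.58, 1.25 and 2.38 FPKM in the lungs, and was lower than both organs on FPKM only, with a difference from lung of 0.34 after quantile normalization. Its call against lung was lost without liver 2, lung 1 or lung 3. Hmox1, heme oxygenase, had 34.6, 22.7 and 31.05 FPKM in the livers, against 33.3, 6.68 and 10.5 FPKM in the intestines and 218, 108 and 71.5 FPKM in the lungs, and was called lower than lung on FPKM only and higher than intestine after scaling only.

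**Figure D4:**
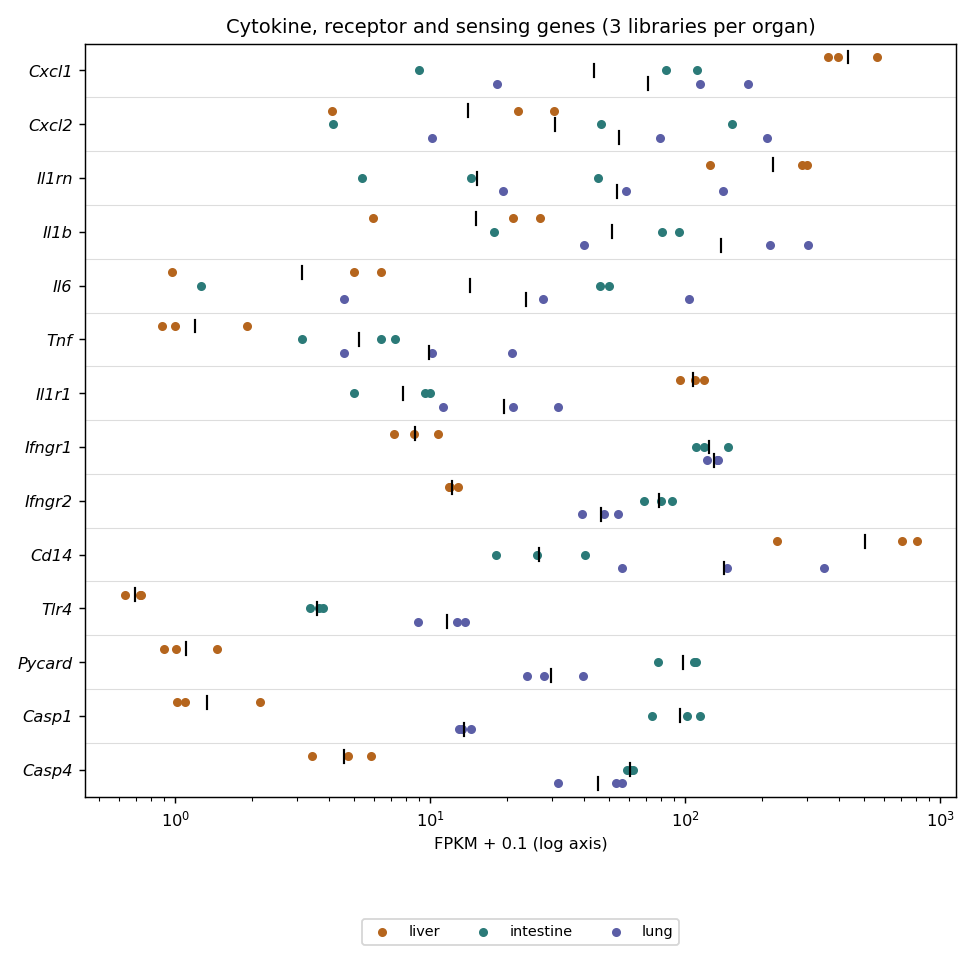
FPKM + 0.1 (log axis) of 14 cytokine, chemokine, receptor and sensing genes in each of the 9 libraries, with liver above intestine above lung in each row and a short bar at the geometric mean of FPKM + 0.1. Livers lie above the other libraries in Cxcl1 and Il1r1, and below them in Ifngr1, Pycard, Casp1, Casp4 and Tlr4.

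Of 25 endoplasmic reticulum genes, 9 were higher and 0 lower at both scalings, against 6.08% and 17.8% of all tested genes. Hsp90b1, an endoplasmic reticulum chaperone, had 1245, 1033 and 736 FPKM in the livers, against 316, 434 and 332 FPKM in the intestines and 287, 275 and 455 FPKM in the lungs. Pdia4, which forms disulfide bonds, had 171, 266 and 154 FPKM in the livers, against 59.8, 88.1 and 55.1 FPKM in the intestines and 40.2, 29.2 and 69.5 FPKM in the lungs. All livers exceeded the other organs in both genes. Ddit3, or CHOP, of the stress response, was lower on FPKM only, at 8.55, 10.3 and 10.5 FPKM in the livers, against 21.3, 15.9 and 20.1 FPKM in the intestines and 29.9, 34.7 and 41.7 FPKM in the lungs. Of 20 glucocorticoid targets, 5 were higher and 1 lower. Tat, which breaks down tyrosine and is induced by glucocorticoids in liver, had 1104, 731 and 697 FPKM in the livers, against 116, 102 and 74.3 FPKM in the intestines and 6.67, 9.53 and 2.46 FPKM in the lungs. Sgk1, a kinase that glucocorticoids induce, was the lower one, at 9.97, 16.1 and 8.67 FPKM in the livers, against 295, 77.8 and 191 FPKM in the intestines and 152, 135 and 78.3 FPKM in the lungs. Of 30 antioxidant genes, 3 were higher and 5 lower, shares near the 6.08% and 17.8% of all tested genes. Prdx4, the peroxiredoxin of the endoplasmic reticulum, was higher, at 94.97, 103 and 101 FPKM in the livers, against 22.7, 27.9 and 27.6 FPKM in the intestines and 38.4, 43.5 and 39.4 FPKM in the lungs. Gpx2, a glutathione peroxidase of epithelia, was lower, at 2.43, 0.267 and 0 FPKM in the livers, against 1568, 1336 and 1430.2 FPKM in the intestines and 169, 86.3 and 38.1 FPKM in the lungs.

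Ribosomal and respiratory genes showed how far a direction depends on scaling. On FPKM all 35 ribosomal protein genes tested were lower in liver than in both organs. Their medians were -0.88 from intestine and -1.12 from lung, close to the medians of all genes. After median-of-ratios scaling 0 were lower and 5 higher, with medians of 0.00 and 0.33. Among all tested genes 6.08% were higher and 50.5% lower on FPKM, and 19.7% were higher and 17.8% lower after scaling. Of 35 oxidative phosphorylation genes 0 were higher and 11 lower on FPKM, and 13 were higher and 0 lower after scaling. No direction is therefore given for either list.

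Cell division genes were lower in liver at both scalings. Of 29 tested, 25 were lower and 0 higher, against 17.8% of all genes. Mki67, a marker of cycling cells, had 0.242, 0.115 and 0.279 FPKM in the livers, against 14.9, 16.9 and 15.99 FPKM in the intestines and 5.73, 5.50 and 3.23 FPKM in the lungs. Top2a, which untangles DNA before division, had 0.268, 0.152 and 0.210 FPKM in the livers, against 30.5, 34.4 and 36.99 FPKM in the intestines and 7.30, 9.20 and 4.03 FPKM in the lungs. The livers were below 1 FPKM in both, and did not overlap with other organs. Epithelial junctions differed by kind. Of 28 genes, 4 were higher and 12 lower. Gjb1 and Gjb2, the gap junction proteins of hepatocytes, and the adhesion genes Cdh2 and Cldn14 were higher. Gjb2 had 142, 154 and 150.2 FPKM in the livers, against 5.45, 7.89 and 5.83 FPKM in the intestines and 5.16, 3.23 and 1.76 FPKM in the lungs. Cdh1, E-cadherin, had 3.42, 5.54 and 4.20 FPKM in the livers, against 247, 167 and 171 FPKM in the intestines and 111, 76.6 and 69.3 FPKM in the lungs. Epcam, an epithelial adhesion protein, had 0.563, 0.370 and 0.875 FPKM in the livers, against 869, 654 and 863 FPKM in the intestines and 54.04, 41.5 and 35.5 FPKM in the lungs. In the matrix list 20 of 34 were lower and 3 higher. Fn1, fibronectin, which hepatocytes release into plasma, had 517, 454 and 482 FPKM in the livers, against 7.997, 8.17 and 6.49 FPKM in the intestines and 48.7, 32.04 and 29.6 FPKM in the lungs, and the other higher ones were Col15a1 and Col18a1.

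The genes furthest below both organs included several of gut and airway epithelia. The 15 with the largest smaller difference were Lyz1, Slc34a2, Pglyrp1, Crip1, Dpep1, Prr15l, Krt7, Cfd, Gpx2, Ace, Pdlim2, Krt19, Tspan8, S100a6 and Atp1b1. Lyz1, lysozyme of Paneth cells and of the airway, had 2.47, 1.44 and 1.54 FPKM in the livers, against 3867, 5741 and 5709.6 FPKM in the intestines and 577, 610.0 and 829 FPKM in the lungs. Slc34a2, a phosphate carrier of alveolar and gut cells, had 0.338, 0.440 and 0.265 FPKM in the livers, against 122, 68.5 and 107 FPKM in the intestines and 466, 445 and 467 FPKM in the lungs. Pglyrp1, which binds bacterial cell walls, had 4.26, 1.14 and 0.866 FPKM in the livers, against 256, 387 and 252 FPKM in the intestines and 178, 133 and 203 FPKM in the lungs. None of the 15 overlapped between liver and the other organs, as the rule required. Ace, angiotensin-converting enzyme, had 0.332, 0.560 and 0.665 FPKM in the livers, against 73.9, 71.7 and 77.4 FPKM in the intestines and 68.5, 144 and 342 FPKM in the lungs. Atp1b1, a sodium pump subunit, had 9.73, 7.44 and 6.06 FPKM in the livers, against 399, 346 and 385 FPKM in the intestines and 347, 378 and 275 FPKM in the lungs.

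Of 18 hepatocyte markers 14 were higher in liver and 0 lower, and the other 4, Apoa1, Apob, Cps1 and Hnf4a, were shared with intestine. Of 15 Kupffer cell markers 5 were higher and 0 lower at both scalings. Their summed level was 308.9 to 349.0 FPKM in the livers, against 149.4 to 217.8 FPKM in the intestines and 365.6 to 421.1 FPKM in the lungs. On FPKM the summed level was thus not highest in liver. The median log2 difference of these markers from lung was -0.6 on FPKM and 0.57 after median-of-ratios scaling. Its sign thus depended on scaling, and no order of liver and lung is given for the whole list. Clec4f, the marker held to be particular to Kupffer cells, had 6.63, 5.83 and 3.85 FPKM in the livers and was listed at 0 in the other 6 libraries. Marco, a scavenger receptor for bacteria, had 151, 92.2 and 133 FPKM in the livers, against 2.92, 1.38 and 2.09 FPKM in the intestines and 44.8, 19.1 and 25.3 FPKM in the lungs. Markers of the portal end of the liver lobule were higher in 11 of 15 cases and lower in 1, and those of the central end were higher in 8 of 14 and lower in 3. Of 13 cholangiocyte markers 2 were higher and 6 lower, and of 11 sinusoidal endothelial markers 2 were higher and 1 lower, and the lower one was not called without liver 1, liver 3 or intestine 1. S100a8, a calprotectin subunit of neutrophils, had 178, 57.98 and 118 FPKM in the livers, against 518, 70.8 and 237 FPKM in the intestines and 8986, 11322 and 15149 FPKM in the lungs. In S100a8 the lung exceeded the liver in every library, and liver and intestine overlapped. Of 16 neutrophil markers tested, 1 was higher, Lcn2, which hepatocytes also make, and 2 were lower, against 17.8% of all tested genes. The lower count was 1 without intestine 1 or intestine 3 and 4 without intestine 2. Of 11 T and NK cell markers 8 were lower and 0 higher, and the lower count was 4 without liver 1 or intestine 3.

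Some genes typical of other organs were detected in the livers. Scgb1a1, the secretoglobin of airway club cells, had 4.30, 0 and 0 FPKM in the livers, against 3.22, 0 and 0 FPKM in the intestines and 144854, 146703 and 153397 FPKM in the lungs. Sftpc, a surfactant protein, had 1.13, 0 and 0 FPKM in the livers, against 0.562, 0 and 0 FPKM in the intestines and 20779, 32835 and 33492 FPKM in the lungs. Dmbt1, a mucosal protein, had 37.2, 0 and 0 FPKM in the livers, against 1812, 1299 and 1033 FPKM in the intestines and 0.954, 0.496 and 0.307 FPKM in the lungs. Reg3b and Reg3g, antibacterial lectins of the gut, were present in every liver. Reg3b had 473, 458 and 177 FPKM in the livers, against 89213, 92036 and 93299 FPKM in the intestines and 4.59, 0.632 and 0 FPKM in the lungs. Reg3g had 723, 294 and 519.8 FPKM in the livers, against 48142, 58003 and 51385 FPKM in the intestines and 520.0, 490.0 and 451 FPKM in the lungs, with liver and lung overlapping. The gut marker Cdx2 was listed at 0 in all livers, against 76.5, 62.3 and 64.8 FPKM in the intestines. Vil1, another gut marker, had 0.179, 0 and 0.0560 FPKM in the livers, against 614, 332 and 453 FPKM in the intestines. Both were far less abundant in the intestines than Reg3b and Reg3g. These genes were named after their values were seen, and what put them in the liver libraries was not tested.

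The 3 septic livers differed from each other in several secreted and metabolic genes of hepatocytes. Over 5727 tested genes with a mean of at least 5 FPKM in liver, leaving out predicted and small RNA genes, the median range among replicates was 0.405 on the log2 scale in liver, against 0.35 in intestine and 0.335 in lung. The 10 genes with the widest range among livers were Mup2, Dmbt1, Car3, Rps27, Ndufs5, Inmt, Rmrp, Rpl26, Npy and Mup7. Mup7, a major urinary protein made by hepatocytes, had 2345, 117 and 1662 FPKM in livers 1 to 3, and Mup2, of the same family, had 1.05, 19.1 and 237 FPKM. These family members are near-identical in sequence, so how reads were split between them is uncertain. Mup7 was lowest in liver 2 and Mup2 in liver 1. Mup20 and Mup3, of the same family, were lowest in liver 2. Mup20 had 9648, 2255 and 5844 FPKM in livers 1 to 3. Mup3 had 7067, 2257 and 4343 FPKM. Car3, carbonic anhydrase of liver, muscle and fat, had 65.4, 1.10 and 20.5 FPKM and Inmt, a methyltransferase, had 63.9, 1.22 and 23.9 FPKM. Both were lowest in liver 2. Rpl26 had 0, 16.1 and 22.4 FPKM in the livers, and Ndufs5 had 0.003, 12.9 and 28.6 FPKM. Both are used by nearly all cells, so such values may be failed estimates and are not read as levels.

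Some whole lists also leaned to single livers, and not all of them are named here. Members of a list in 1 library are not independent of each other. In the NF-kB and TNF response list 20 of 30 genes were highest in liver 3, against 29.5% of all tested genes. Of 33 fatty acid oxidation genes 25 were highest in liver 2, and of 30 liver-enriched transcription factors 21 were. Of 35 ribosomal protein genes 30 were lowest in liver 2. Across all 13238 tested genes liver 2 was highest in 35.9% and lowest in 39.5%. Of 16 neutrophil markers 13 were highest in liver 1, against 34.5% of all tested genes. Cyp4a14, a fatty acid hydroxylase that PPAR alpha induces, had 5.64, 93.3 and 4.11 FPKM in livers 1 to 3, and Fabp1, the liver fatty acid binding protein, had 659, 2069 and 201 FPKM. Khk, which starts fructose breakdown, had 696, 71.5 and 497 FPKM, with the low value in liver 2, and its call against intestine was lost without liver 1, liver 3, intestine 1 or intestine 2. No test was made between single livers, since each is 1 library. Without liver 2, 780 genes were higher and 2180 lower than both organs at both scalings, against 805 and 2352 with it.

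**Figure D5:**
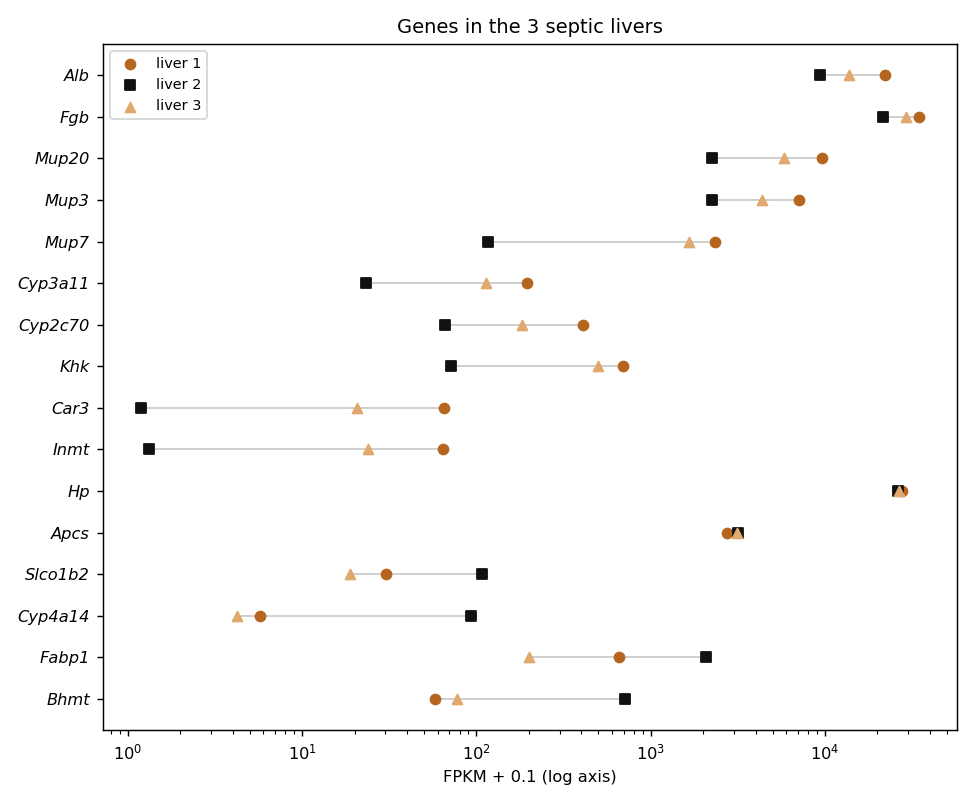
FPKM + 0.1 (log axis) of 16 genes in livers 1, 2 and 3, with 1 row per gene and 1 marker per library. Liver 2 is the lowest library in the genes from Alb to Inmt and the highest in Slco1b2, Cyp4a14, Fabp1 and Bhmt, and the 3 livers lie close together in Hp and Apcs.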

How the data were processed

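RNA-seq of the liver, intestine and lung of septic mice was deposited as 1 table of FPKM per library. The authors used mouse build mm10, per the submitters' processing notes, which do not give roles or options, and the submitters' processing notes name Cufflinks 2.2.1, Bowtie2 2.2.3, TopHat2 2.0.13 and SAMtools 0.1.19. The libraries were stranded poly(A) libraries, per the labels' protocols. The unit FPKM of the deposited values was read from the values and the tool named, since no read counts come with it. 1 further column of values in the table of lung 2 was not used.

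From these values log2(FPKM + 1) was computed for the 9 control libraries, and genes with a mean of at least 1 FPKM were tested with limma 3.58.1 in R 4.3.3, with 1 mean per organ, a trend and two-sided p-values adjusted by Benjamini-Hochberg over all 13238 genes. Each liver difference was taken against intestine and against lung. A gene was called at an adjusted p under 0.05 in both with the same sign. Median-of-ratios scaling of FPKM was the main alternative. On simulated data with 100 genes changed by 1 and 100 by 2 on the log2 scale among 13238, 56% and 88% were called, with 4 unchanged genes called. The changed genes were drawn from those with a mean log2(FPKM + 1) above 2, and all other genes had the same mean in every organ. The simulated data thus had no shift of the whole distribution, and these rates do not cover errors that come from scaling. Depth is not given by FPKM and was estimated from genes at 1 fragment, so no counting intervals are given.

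The 53 gene lists hold 1240 symbols, of which 1234 were found. The members and lists were chosen with earlier results of these data known. The text names the 15 genes furthest above and below both organs without overlap, up to 6 per list in each direction by the smaller difference, members of any call from 8 lists where the text needs them (acute-phase, urea cycle, bile acid, cytokine, receptor, lipopolysaccharide, iron and transcription factor genes), a panel of inflammatory genes and the 10 with the widest range among livers. C3, Apoa1, Apob, Cdx2, Vil1, Scgb1a1, Sftpc, Reg3b, Reg3g, Cyp4a14 and Fabp1 were chosen after their values were seen. Some list members are not reported here. Promoter sequences came from RefSeq, GRCm38.p6.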

Additional observations from a re-analysis of the deposited data

How the results depend on the processing

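Scaling and the size of difference required moved the counts most. After median-of-ratios scaling 2612 genes were higher and 2352 lower than both organs, 3660 and 3921 against intestine, and 4158 and 4584 against lung. After quantile normalization the counts were 2517 and 1773 against both, 3868 and 3423 against intestine, 4319 and 4186 against lung, and 862 between. With limma's treat test against a log2 difference of 1 they were 433 and 1566, 661 and 2602, 623 and 5273, and 46 between. That test with median-of-ratios scaling, added after seeing the data, gave 518 lower than both, 1530 lower than intestine, 2068 lower than lung and 50 between. Array weights gave 785 between.

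Leaving out 1 library gave 743 to 787 genes higher and 6113 to 6750 lower than both organs, 1358 to 1552 and 6995 to 7753 against intestine, 1043 to 1152 and 9545 to 9940 against lung, and 362 to 477 between. The other pseudocounts, filters and limma settings kept these counts within 1.5 times the values reported.

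Differences that changed sign after quantile normalization were those from lung of Heph (0.064), Il6ra (0.088), Lcn2 (-0.31), Nos2 (0.34) and Saa3 (-0.77), and those from intestine of Creb3l3 (0.26) and Hnf4a (0.15). After median-of-ratios scaling, with or without the treat test, they were Apoa1 (0.75), Apob (0.58), Creb3l3 (0.68) and Hnf4a (0.60) from intestine and Ccl2 (0.16), Il6ra (0.19) and Socs3 (0.0003) from lung. Cps1 from intestine was -0.057 after rescaling libraries to 1 total and -0.16 with array weights. Leaving out 1 library gave -0.25 to 0.52 for Cps1, -0.41 to 0.087 for Apoa1 and -0.67 to 0.17 for Creb3l3 from intestine, with the sign changed without liver 1, liver 2 or intestine 1 for Cps1 and without intestine 1 for the others. The causes were not tested.

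With the replicate number as a block 804 genes were higher and 6602 lower than both organs. Same-numbered libraries did not deviate together in all pairs (correlations -0.18 to 0.21), and 4 of 9 libraries correlated best with their own number, so the numbers were not taken as pairing.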

Other observations

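Among the 100 genes with the highest mean FPKM in liver, 63 were called higher than both other organs on FPKM. Another 18 were lower, 2 between and 17 not called. The shares of all tested genes on FPKM were 6.08% higher, 50.5% lower and 3.6% between. The 100 genes were picked by their liver level, which also enters the calls, so the counts are a description and not a test. Of these 100, 22 belong to the acute-phase list. No set of 4 or more libraries was available in 1 group to look for single outlying libraries by a formal rule.

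Some vascular and stromal genes are not described in the report. Of 25 endothelial activation and adhesion genes tested, 0 were higher and 4 lower at both scalings, near the 6.08% and 17.8% of all tested genes. Of 17 smooth and cardiac muscle markers 0 were higher and 10 lower, against the same shares. Of 12 genes of metallothioneins and zinc transport, 2 were higher, Mt1 and the zinc and iron importer Slc39a14, and 1 was lower. In that list the higher count was 1 without liver 3, and the lower count was 2 without liver 2 or lung 3 and 0 without lung 2.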
